A study of Mus musculus with 2 samples.

Results

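The respiratory chain is described here through 108 of the 32285 genes in the deposited annotation. They were chosen by symbol and not by a measured value, though with earlier results of these data known. The symbols mark subunits, isoforms and assembly factors of complexes I to V, and cytochrome c. Of the 108 genes, 95 are nuclear: 45 for complex I, 4 for complex II, 8 for complex III, 20 for complex IV, 17 for complex V, and Cycs for cytochrome c. The other 13 lie on the mitochondrial genome, 7 for complex I, 1 for complex III, 3 for complex IV and 2 for complex V. Ndufa4 and Ndufa4l2 were counted with complex IV, to which the Ndufa4 protein is now assigned.

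The series concerns electrical stimulation from the matrix and the fate of mouse CD8+ T cells, which kill infected or malignant cells. It holds 1 single-cell 3' library labelled NC and 1 labelled HC, both from CD8+ T cells of lymph node. The labels expand neither name, and name no strain, no age and no stimulated library. With 1 library per group there was no test, and the 95% intervals below cover counting error only.

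The respiratory chain passes electrons from NADH (complex I) or succinate (complex II) through ubiquinone to complex III, and from there by cytochrome c to complex IV, which reduces oxygen. Complexes I, III and IV build a proton gradient that drives ATP synthesis by complex V. Complex II is made from nuclear genes alone, whereas the other complexes join nuclear subunits with a few that are made inside the mitochondrion.

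Cells were kept with 500 or more genes, 1000 or more unique molecular identifiers (UMIs) and no more than 10% of their UMIs from the mitochondrial genome. They numbered 13641 in NC and 13617 in HC, with medians of 6898 and 7425 UMIs. The libraries shared 64 barcodes, and without them the summed ratios below moved by less than 0.01 on the log2 scale. All 7 markers listed for CD8 T cells were detected in both, at a summed 7653 counts per 1000000 UMIs (CPM) in NC and 6678 in HC. The list includes Cd3 and T cell receptor genes, which other T cells share. Cd8a itself stood at 353.9 CPM in NC and 243.8 in HC, and Cd8b1 at 567.8 and 528.7. Both helper or regulatory T cell markers had UMIs in each library, summing to 0.0345 and 0.035 CPM, and both platelet markers were at 0. All 5 B cell markers were detected, at a summed 35.4 in NC and 16.5 in HC. The 4 macrophage markers summed to 3.63 in NC, where C1qa was at 0, and to 0.00874 in HC, where C1qa, Lyz2 and Adgre1 were at 0. The NK, dendritic, erythroid and stroma markers summed to between 0.0259 and 1.43 CPM in each library, and the endothelial pair to 43.6 in NC and 40.9 in HC, nearly all from Pecam1, which T cells also express. Without cells holding B cell marker UMIs, an alternative added after seeing the data, the log2 ratios of HC over NC given below were 0.119 for the mitochondrial and 0.031 for the nuclear sum.

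A level is a gene's CPM, summed over the cells of a group. Each captured RNA is counted once, at its 3' end, so levels were not divided by gene length. Fewer cells with an RNA and less of it per cell give the same summed level. The chain took 60065 CPM in NC and 63937 in HC. Most of it came from the 13 mitochondrially encoded genes, at 40112 in NC and 43546 in HC, against 19953 and 20391 for the 95 nuclear genes. The mitochondrial level was thus 2.01 times the nuclear level in NC and 2.14 times in HC.

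The balance of the genomes differed by complex. In complex IV, 3 mitochondrial genes at 21078 CPM in NC stood against 20 nuclear genes at 5396, a ratio of 3.91. In complex III the single gene mt-Cytb held 2.33 times the level of the 8 nuclear genes. The ratio was 1.22 in complex I and 1.23 in complex V. Complex II had the lowest level of the 5 complexes, 385.3 CPM in NC and 371.4 in HC.

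Between the libraries the nuclear genes of the chain lay close together, and the mitochondrial genes were slightly higher in HC. Summed over the nuclear genes, HC over NC gave a log2 ratio of 0.031 (0.029 to 0.034), and summed over the mitochondrial genes 0.119 (0.117 to 0.120). The mitochondrial ratio was above 0 in each complex that has such genes: 0.155 in complex I, 0.148 in III, 0.105 in IV and 0.107 in V. The nuclear ratio was 0.038 in complex I, −0.053 in II, 0.0056 in III, 0.055 in IV and 0.028 in V. The mitochondrial levels are bounded by the filter on cells, which uses the same 13 genes. With a limit of 5% in place of 10% the mitochondrial ratio was 0.086, and with 20% it was 0.127. Barcodes above 10% made up 7.41% of NC and 11.5% of HC, and their part in the result was not tested.

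Genes were compared singly where they reached 5 CPM in either library, as 88 nuclear and 13 mitochondrial genes did, and a ratio past 1.2-fold was called. Of the 88 nuclear genes, 2 were higher in HC (Ndufv3 and Cox6b2) and 2 were lower (Ndufaf4 and Cycs). Of the mitochondrial genes, 1 was higher (mt-Nd6) and none was lower. Of all 8704 genes that reached the same level, 10.7% were higher and 11.5% were lower. At 1.5-fold, 2 nuclear genes were higher and 1 was lower, beside 1.93% and 1.47% of all genes. The median log2 ratio was 0.011 for the nuclear genes, 0.109 for the mitochondrial genes and −0.029 for the 8704.

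**Figure D1:**
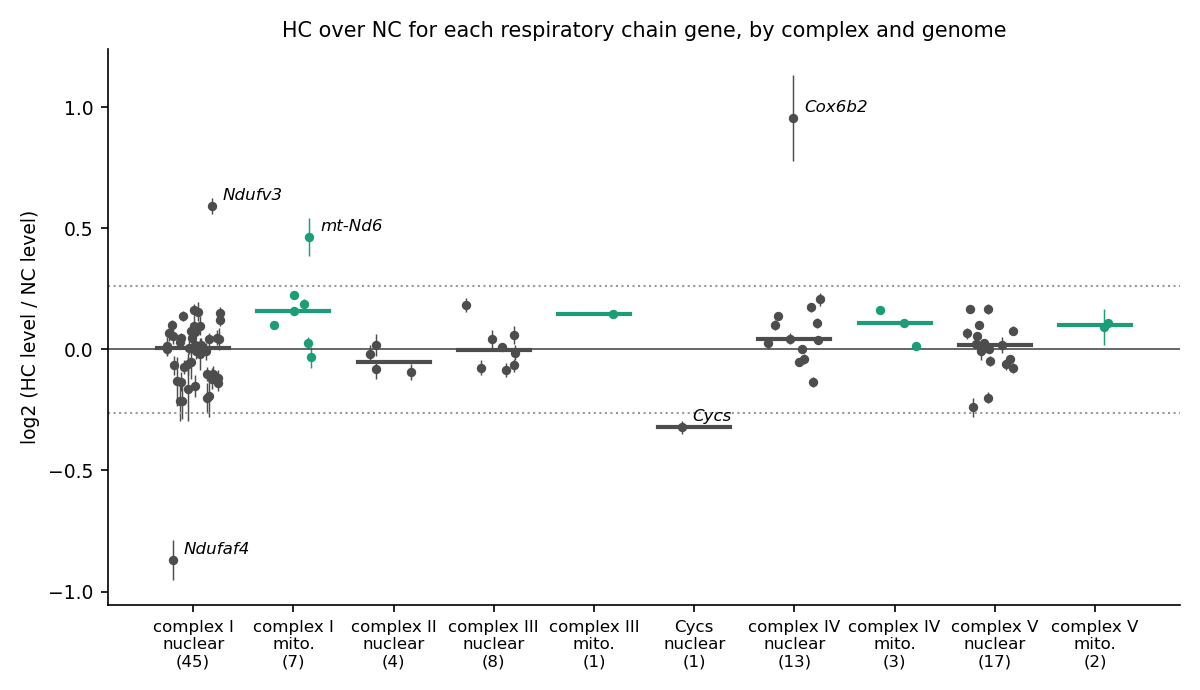
Log2 ratio of the HC level over the NC level (vertical axis) of each respiratory chain gene with at least 5 CPM in either library, by complex and genome. Points are genes with 95% counting intervals, bars are medians and dotted lines mark 1.2-fold, which Ndufv3, Cox6b2 and mt-Nd6 pass above and Ndufaf4 and Cycs pass below.

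Ndufv3 encodes an accessory subunit of the arm of complex I that oxidises NADH (chromosome 17, 31520115 to 31531331, plus strand, GRCm38). It stood at 106.8 CPM in NC and 160.9 in HC, a log2 ratio of 0.59 (0.56 to 0.62). With each cell thinned to 2000 UMIs, 19.8% of NC cells and 27.4% of HC cells held a Ndufv3 UMI, against 55.4% and 66.9% unthinned. Its neighbours in that arm were closer to 0: Ndufv1, the flavin-binding core subunit, had a log2 ratio of 0.16 and Ndufv2 one of 0.030.

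Ndufaf4 encodes an assembly factor, which acts while complex I is put together and is absent from the finished enzyme (chromosome 4, 24898083 to 24905001, plus strand). It stood at 29.4 CPM in NC and 16.1 in HC, a log2 ratio of −0.87 (−0.95 to −0.79). After thinning, 5.32% of NC and 2.99% of HC cells held a UMI of it, against 18.5% and 11.2% unthinned. The other 7 assembly factors named Ndufaf had log2 ratios between −0.21 (Ndufaf7) and −0.051 (Ndufaf3), none past 1.2-fold. The median over all 8 was −0.197, against 0.018 over the 7 nuclear core subunits and 0.043 over the 30 accessory subunits. Ndufa13, the nuclear gene of complex I with the highest level, stood at 315.0 in NC and 346.6 in HC. Ndufv2, Ndufaf7 and Ndufaf3 are named after their values were seen.

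Cycs encodes cytochrome c, the carrier between complexes III and IV, which also starts the caspase cascade when it leaves the mitochondrion (chromosome 6, 50562563 to 50566538, minus strand). It stood at 218.9 CPM in NC and 175.1 in HC, a log2 ratio of −0.32 (−0.35 to −0.30). After thinning, 31.3% of NC and 26.2% of HC cells held a Cycs UMI, against 67.5% and 63.2% unthinned. Cyc1, the membrane-bound cytochrome of complex III, lies outside the symbols chosen and is named after its value was seen, a log2 ratio of −0.070.

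Upstream sequence is shown for Ndufv3, Ndufaf4 and Cycs, the nuclear genes furthest apart between the libraries among those above 10 CPM. Each run is the 250 bases before the gene's start in RefSeq (GRCm38.p6), 5′ to 3′ on the gene's strand: chr17:31519865-31520114 (plus) for Ndufv3, chr4:24897833-24898082 (plus) for Ndufaf4 and chr6:50566570-50566819 (minus) for Cycs. Capitals mark matches on either strand to ACGTG or GCGTG (the core bound by hypoxia-inducible factors), CACGTG (the E-box, which contains ACGTG), the palindromic NRF1 consensus or CCGGAAG (an ETS core).
Ndufv3: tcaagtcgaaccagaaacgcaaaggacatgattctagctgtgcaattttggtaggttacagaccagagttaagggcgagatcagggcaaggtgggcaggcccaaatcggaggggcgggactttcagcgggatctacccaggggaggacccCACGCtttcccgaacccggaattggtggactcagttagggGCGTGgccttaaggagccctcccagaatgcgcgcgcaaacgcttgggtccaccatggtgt
Ndufaf4: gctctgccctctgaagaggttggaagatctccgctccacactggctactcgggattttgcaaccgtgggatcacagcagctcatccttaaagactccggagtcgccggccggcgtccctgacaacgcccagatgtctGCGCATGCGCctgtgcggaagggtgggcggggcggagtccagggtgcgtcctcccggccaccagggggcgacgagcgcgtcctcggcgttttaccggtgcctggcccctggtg
Cycs: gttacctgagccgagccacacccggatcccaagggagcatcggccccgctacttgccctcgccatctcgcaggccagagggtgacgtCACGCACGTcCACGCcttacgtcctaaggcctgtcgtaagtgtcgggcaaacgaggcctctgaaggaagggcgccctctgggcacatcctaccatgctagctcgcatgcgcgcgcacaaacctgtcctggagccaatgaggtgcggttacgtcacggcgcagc
The Ndufv3 window holds 2 matches to GCGTG, the Cycs window 2 to GCGTG and 1 to ACGTG, and the Ndufaf4 window 1 to the NRF1 consensus. Cox6b2 differed more between the libraries but lay below 10 CPM. Its window was searched as well and holds no match to any of these. Of the 95 nuclear genes, 76 had an entry in the table. GCGTG occurred in 43.4% of these windows and in 28.2% of 27025 windows of all genes, and ACGTG in 19.7% and 16.6%. The NRF1 consensus occurred in 6.58% and 0.781%, CCGGAAG in 17.1% and 7.05%, and CACGTG in 6.58% and 6.05%. Only exact matches were counted, so letters that differ from the NRF1 consensus by a base, such as tcgcatgcgc in the Cycs window, were left unmarked. The windows of all genes were not matched to those of the chain for GC content, whose part in these shares was not tested. A match describes letters only, and no binding data were set against it.

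Complex II couples the citric acid cycle to the chain. Sdha, its flavoprotein, stood at 86.4 CPM in NC and 81.6 in HC, and Sdhb, its iron-sulfur subunit, at 136.6 and 127.9. The membrane anchors Sdhc and Sdhd stood at 65.9 and 96.4 in NC and at 66.7 and 95.2 in HC. All 4 log2 ratios lay between −0.094 and 0.017. In complex III, Uqcrh, the hinge subunit, had the highest nuclear level, 760.1 in NC and 764.9 in HC. Uqcrfs1, the Rieske iron-sulfur subunit, had the highest ratio at 0.18, and Uqcrq the lowest at −0.085.

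Complex IV has subunits with paralogues that replace each other by tissue or oxygen supply. The common forms held nearly all its nuclear level, led by Cox4i1 at 1008 CPM in NC and 1108 in HC (log2 ratio 0.14). Cox6b2, a form known from testis, was the only one of 8 such isoforms to reach 5 CPM (chromosome 7, 4751792 to 4753094, minus strand). It stood at 3.42 in NC and 6.63 in HC, a log2 ratio of 0.96 (0.78 to 1.13). It reached 5 only in HC, so it had to differ, and its call is a description. The common form Cox6b1 stood at 339.2 and 363.8.

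The other isoforms were rare. Cox7a1, a muscle form, had 59 UMIs in NC and 160 in HC, Cox4i2, a form of lung and low oxygen, 6 and 16, and Cox6a2, also of muscle, 11 and 2. Ndufa4l2, a low-oxygen relative of Ndufa4, had 0 and 1. No UMI of Cox7b2, Cox8b or Cox8c was counted, which allows up to 0.0259 CPM in NC and 0.0262 in HC. Among the common forms, Cox6a1 had a log2 ratio of 0.21, Cox7a2 0.043, Cox7b 0.026, Cox8a 0.038 and Ndufa4, the lowest of the complex, −0.14.

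Complex V makes ATP in its F1 head, driven by a ring of c subunits that turns in the membrane. The 3 genes for the same mature c subunit differed: Atp5g1 stood at 278.7 CPM in NC and 242.7 in HC (−0.20), Atp5g2 at 737.5 and 750.0 (0.024), and Atp5g3 at 292.0 and 279.7 (−0.062). Atp5d, in the rotor of the F1 part, had the highest ratio at 0.17. Atp5md, a small membrane subunit, had the lowest at −0.24 (95.1 in NC and 80.5 in HC). None of the 17 passed 1.2-fold.

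Of the mitochondrially encoded genes, 12 of 13 had ratios above 0. The most abundant, mt-Co3 of complex IV, stood at 8393 CPM in NC and 9404 in HC (log2 ratio 0.16). mt-Co2 stood at 6474 and 6982 (0.11), and mt-Co1, the catalytic subunit, at 6211 and 6279 (0.016). The share of mt-Co1 in the mitochondrial UMIs was 15.5% in NC and 14.4% in HC, the lower share in the library of the higher total. For complex III, mt-Cytb stood at 4211 and 4665 (0.15). For complex V, mt-Atp6 stood at 7988 and 8603 (0.11).

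In complex I, whose mitochondrial genes build the proton-pumping membrane arm, mt-Nd1 stood at 1948 CPM in NC and 2276 in HC (0.22). The log2 ratios were 0.16 for mt-Nd2, 0.026 for mt-Nd3, 0.10 for mt-Nd4, −0.032 for mt-Nd4l and 0.19 for mt-Nd5. mt-Nd6, the only one of the 13 on the light strand, stood at 19.6 in NC and 27.1 in HC (0.46, 0.39 to 0.54). It overlaps mt-Nd5 on the opposite strand in the annotation, and how the counting treated strand is not stated in the sources used here. mt-Atp8, at 25.2 and 26.8, overlaps mt-Atp6, and mt-Nd4l overlaps mt-Nd4, so the division of UMIs within each pair is uncertain.

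Cells were then split by the presence of UMIs of Bnip3 and of Mki67. Bnip3 encodes an outer-membrane protein that low oxygen induces and that marks mitochondria for removal, and Mki67 encodes Ki-67, a protein of dividing cells. Bnip3 stood at 9.11 CPM in NC and 43.3 in HC, and Mki67 at 356.9 and 521.9. A Bnip3 UMI was found in 944 NC cells (6.92%) and 2962 HC cells (21.8%), and an Mki67 UMI in 7285 (53.4%) and 9425 (69.2%). A cell without a UMI may still hold the RNA, and cells with a UMI were deeper. The median was 10378.5 UMIs with Bnip3 and 6737 without in NC, and 9590 and 6909 in HC. For Mki67 it was 9367 and 5703 in NC, and 8774 and 5172.5 in HC.

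The mitochondrial ratio of HC over NC was highest in cells with neither RNA and close to 0 in cells with both. In cells with neither, the mitochondrial genes stood at 40587 CPM in NC and 47174 in HC (log2 ratio 0.217). With Mki67 alone they stood at 39939 and 44102 (0.143), and with Bnip3 alone at 40311 and 43218 (0.100). With both they stood at 39379 and 39825 (0.016). The 4 NC levels thus lay close together and the HC levels did not. mt-Cytb, for complex III, had ratios from 0.303 with neither to −0.018 with both. The nuclear ratio ran from 0.044 with neither to −0.021 with both. Depth moved with the classes, from medians of 5686 UMIs in NC and 5009 in HC with neither to 12594 and 10875 with both, and its part in the result was not tested.

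**Figure D2:**
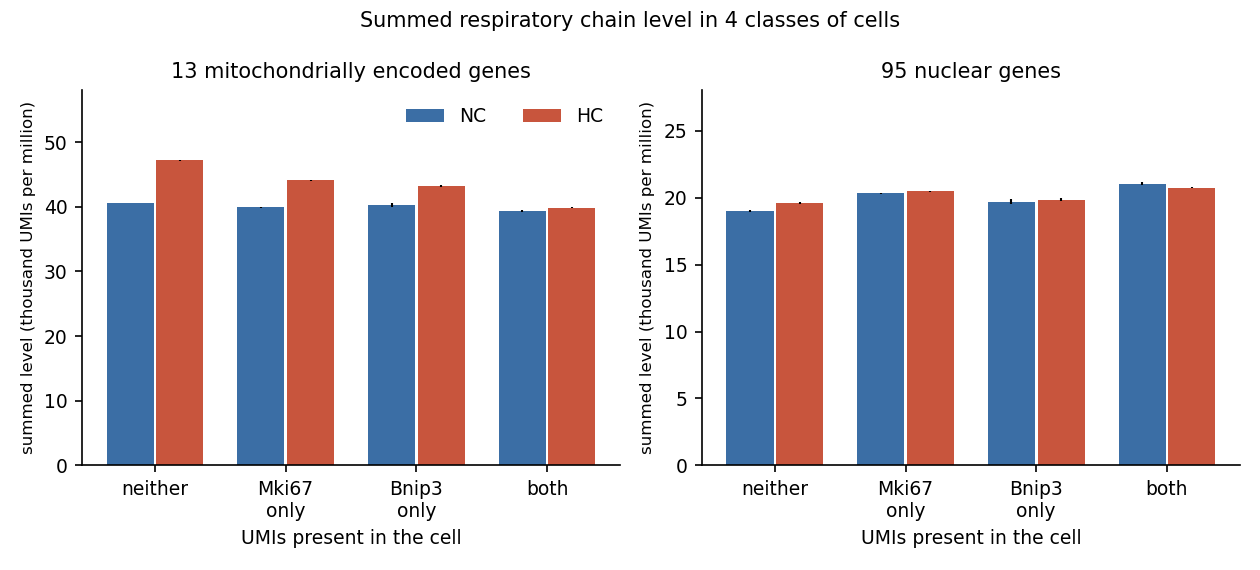
Summed level (vertical axes from 0, in units of 1000 CPM) of the mitochondrially encoded and of the nuclear respiratory chain genes in NC and HC cells, by which of the Bnip3 and Mki67 RNAs was present. Bars are sums over all cells of a class with 95% counting intervals, and the libraries differ most for the mitochondrial genes in cells with neither RNA (40587 in NC and 47174 in HC).

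Within the classes, 4 nuclear genes were lower in HC by 1.2-fold in cells with neither RNA, 4 with Mki67 alone, 14 with Bnip3 alone and 12 with both. Of all genes tested there, 15.7%, 11%, 32.4% and 19.7% were lower. Nuclear genes higher in HC numbered 2, 2, 4 and 2, beside 7.65%, 8.56%, 17.7% and 13.1% of all genes. NC had 279 cells with Bnip3 alone and 665 with both, so the counting error was widest there.

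Ndufv3, Cox6b2, Ndufaf4 and Cycs lay past 1.2-fold, each in its own direction, in all 4 classes. They were chosen for passing 1.2-fold over all cells, which the classes divide, so agreement in direction was partly built in. Over all cells Cox6b2 reached 5 CPM only in HC. Ndufv3 had log2 ratios of 0.56 with neither RNA, 0.43 with Mki67 alone, 1.02 with Bnip3 alone and 0.88 with both. Its NC level lay between 104.5 and 107.8 CPM in every class, while its HC level ran from 144.0 with Mki67 alone to 219.4 with Bnip3 alone. Ndufaf4 had log2 ratios of −0.71, −0.84, −1.28 and −0.92 in the same order. Cycs had −0.37, −0.34, −0.62 and −0.58. In NC its level was 179.6 with neither and 274.5 with both, and in HC 138.6 and 184.0. Cox6b2 had 1.09, 0.82, 1.13 and 1.04, of which the value with Bnip3 alone had an interval that included 0 (−0.17 to 2.68).

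**Figure D3:**
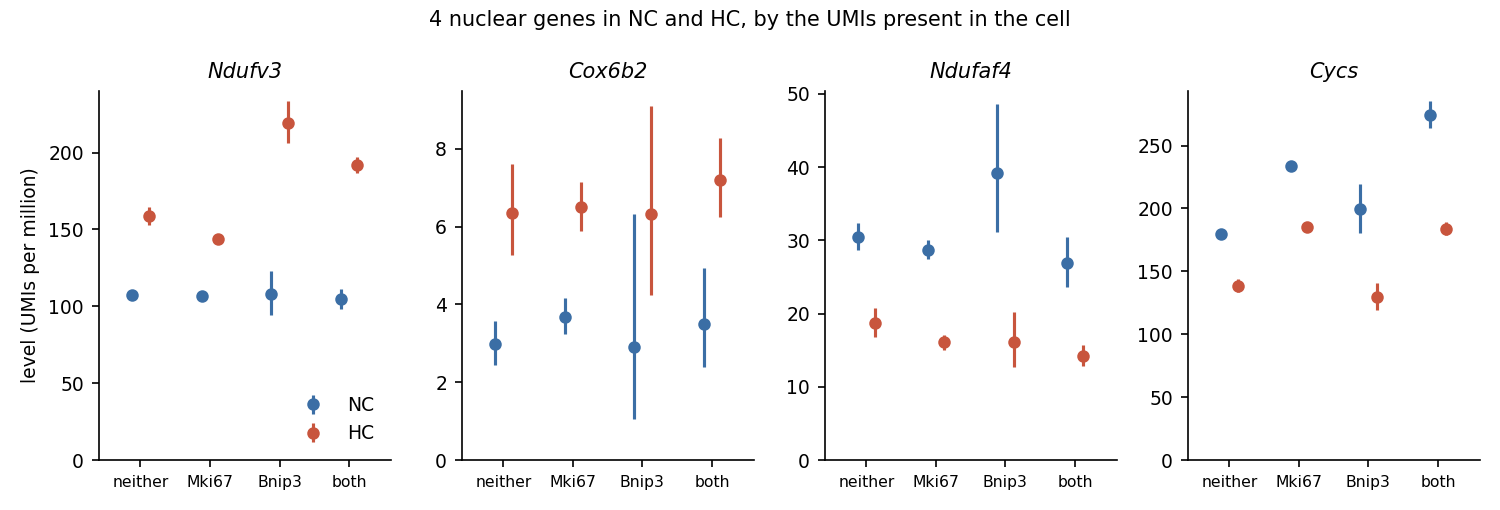
Level (vertical axes, CPM) of Ndufv3, Cox6b2, Ndufaf4 and Cycs in NC and HC cells, by presence of Bnip3 and Mki67 UMIs. Points are class sums with 95% counting intervals, and HC lies above NC for Ndufv3 and Cox6b2 and below it for Ndufaf4 and Cycs in all 4 classes. The genes were chosen by their ratio over all cells, which the classes divide.

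Within the HC library, cells with Bnip3 had a lower mitochondrial level than cells without it, 40310 against 44806 CPM (log2 ratio −0.153, −0.155 to −0.150). Within NC the levels were 39551 and 40172 (−0.022), a ratio above 0 with a mitochondrial limit of 5% (0.031). In HC the ratio was −0.067 for complex I, −0.161 for III, −0.158 for IV and −0.210 for V. It was −0.113 as a mean over 5 bins of cell depth and −0.077 with the 5% limit. The nuclear ratio in HC was 0.023, and −0.013, of the opposite direction, over depth bins.

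Of single genes in HC, Ndufv3 alone was higher with Bnip3, at 195.8 CPM against 147.3 without (0.41, 0.37 to 0.45), and none was lower. Of all genes tested, 5.75% were higher and 3.76% lower. The ratio of Ndufv3 was 0.41 in HC cells with Mki67, 0.47 in those without, and 0.46 over depth bins. In NC, Ndufv3 stood at 105.1 with Bnip3 and 107.0 without (−0.026). The difference between the libraries was not tested. At 1.5-fold no gene of the chain was called with Bnip3 in either library, beside 0.473% higher and 0.265% lower of all genes in NC, and 1.46% and 0.15% in HC.

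In NC, 9 nuclear genes were higher in cells with Bnip3 and none was lower, beside 12.1% and 6.07% of all genes tested. Among them were Ndufaf2, a complex I assembly factor (0.40), Ndufab1, the mitochondrial acyl carrier protein that also sits in complex I (0.33), Atp5g1 (0.31), Uqcrq (0.31) and Cycs (0.28). In HC the same genes had ratios of 0.063, 0.19, 0.17, 0.037 and 0.013, none past 1.2-fold. Ndufaf2, Ndufab1 and Atp5g1 were named by a rule that asks for the same sign in both libraries. Ndufaf6, also among those higher in NC and named after its values were seen, had 0.39 in NC and −0.012 in HC. Of all genes higher with Bnip3 in NC, 15.9% were also higher in HC. The NC count was 3 over depth bins, where 9.02% of all genes were higher, and 1 without the cells above the 95th percentile of UMIs, where 9.24% were. With TMM scaling it was 3, with 7.06% of all genes higher and 9.88% lower. It was 14 after thinning and 30 with presence set at 2 UMIs, where 27.9% and 32.5% of all genes were higher. In these settings 24.7% and 19.9% of all genes were lower. Only 1.67% of the thinned NC cells held a Bnip3 UMI. Over depth bins Ndufaf2 had 0.32 and Cycs 0.085. The lowest in NC was Cox7a2l, a factor of respiratory supercomplexes, at −0.19, with −0.12 in HC.

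Summed over all depths, cells with Mki67 had a higher nuclear level of the chain in both libraries, which over 5 depth bins held in NC (0.073) and turned in HC (−0.016). The level was 20426 CPM with Mki67 and 19047 without in NC (log2 ratio 0.101), and 20583 and 19646 in HC (0.067). The mitochondrial ratio was −0.025 in NC and −0.116 in HC, and with the 5% limit 0.051 and 0.00096. By complex, the nuclear ratios in NC and HC were 0.123 and 0.089 for complex I, 0.154 and 0.131 for II, and 0.153 and 0.099 for V. They were −0.034 and −0.043 for complex III, where the abundant Uqcrh was lower and 6 of 8 genes had ratios above 0, and 0.046 and 0.030 for IV.

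By 1.2-fold, 24 nuclear genes were higher and 3 lower with Mki67 in NC, and 14 were higher and 3 lower in HC. Of all genes tested, 25.8% were higher and 18.8% lower in NC, and 28.2% and 16.7% in HC. At 1.5-fold none of the chain was called in either, beside 10.5% and 4.33% of all genes in NC, and 11.7% and 3.89% in HC. The 11 genes higher in both made up 45.8% of the NC set and 78.6% of the HC set, beside 87.9% and 80.7% of the corresponding sets of all genes. Ndufv1 stood at 91.5 CPM with Mki67 and 66.8 without in NC (0.45), and at 98.3 and 70 in HC (0.49). Ndufab1 had ratios of 0.41 and 0.47, and Ndufaf2 of 0.44 and 0.47. Cycs stood at 238.9 with and 180.6 without Mki67 in NC, and at 185.0 and 136.8 in HC. Its level in HC cells with Mki67 was thus near that of NC cells without it.

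The same 3 genes were lower with Mki67 in both libraries, 1 each of complexes I, III and IV. Such overlap was common, since 73% of all genes lower in NC and 82.9% of those lower in HC were lower in both. Cox7a2l stood at 612.3 CPM with and 799.3 without Mki67 in NC (−0.38), and at 623.0 and 766.5 in HC (−0.30). Ndufa6, a complex I accessory subunit, had ratios of −0.36 and −0.35, and Uqcrh of −0.33 and −0.30. Of the mitochondrial genes mt-Co1 was lowest in both, at −0.22 and −0.21, and mt-Nd1 was above 0 in both, at 0.20 and 0.094.

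**Figure D4:**
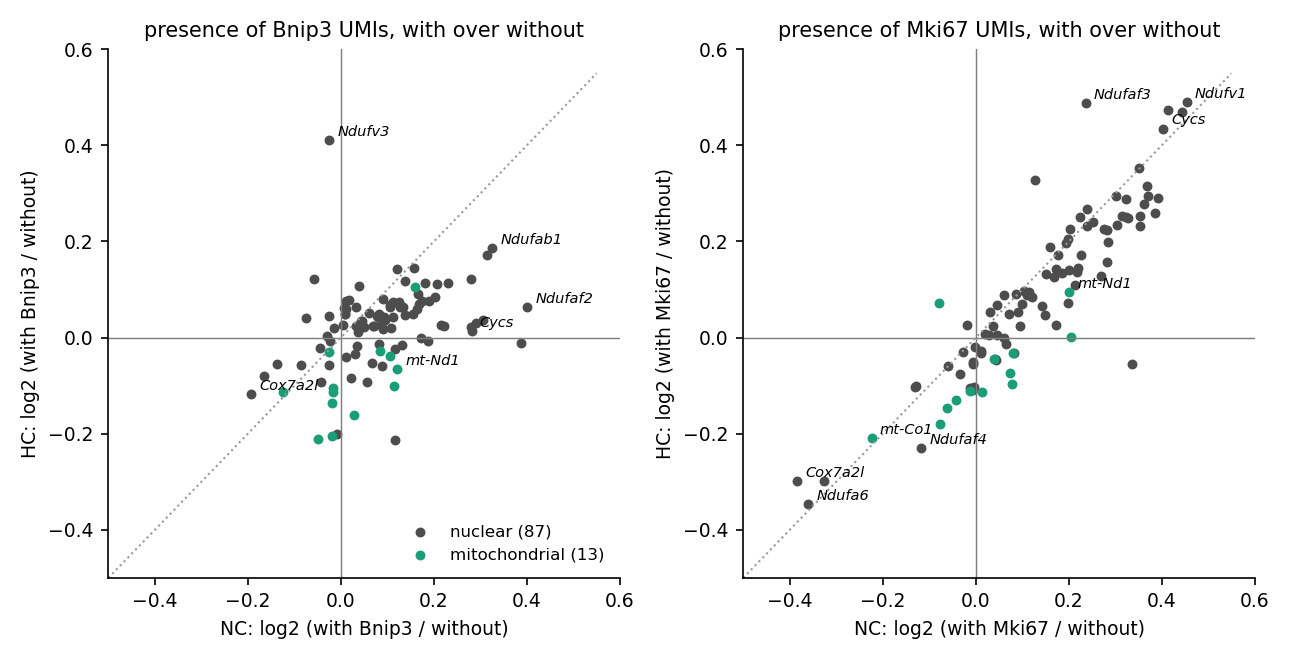
Log2 ratio of the level in cells with over cells without UMIs of Bnip3 or Mki67, in NC (horizontal axis) and in HC (vertical axis), for the respiratory chain genes. Points are genes, the dotted line marks equal ratios, and Ndufv3 stands apart in the Bnip3 panel (−0.026 in NC and 0.41 in HC).

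Depth moved with the Mki67 split. As a mean over 5 depth bins, 3 nuclear genes were higher in NC and 1 in HC, while 16.2% and 20% of all genes tested were. With cells thinned to 2000 UMIs the counts were 2 and 2, while 21.2% and 21.7% of all genes were higher. Ndufv1 had ratios of 0.29 in NC and 0.22 in HC over depth bins, Cycs of 0.14 and 0.060, and Cox7a2l of −0.21 and −0.14. The HC mitochondrial sum had −0.010.

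The mitochondrial level varied with cell depth in different ways in the libraries. Over 5 equal bins of cells by UMIs in HC it was lower in each deeper bin, from 49240 CPM (median 4066 UMIs per cell) to 40784 (median 13931.5). In NC it was lowest in the shallowest bin, at 36790, highest in bin 4, at 41613, and 39883 in the deepest. The nuclear level was 18569 in the shallowest and 21246 in the deepest HC bin. From the shallowest to the deepest NC bin it was 20060, 18824, 19095, 19802 and 20730. The share of cells with a Bnip3 UMI went from 7.93% to 40.8% over the HC bins. With cells of both libraries set in common depth bins, an alternative added after seeing the data, the HC over NC ratio was 0.177 for the mitochondrial and 0.019 for the nuclear genes.

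**Figure D5:**
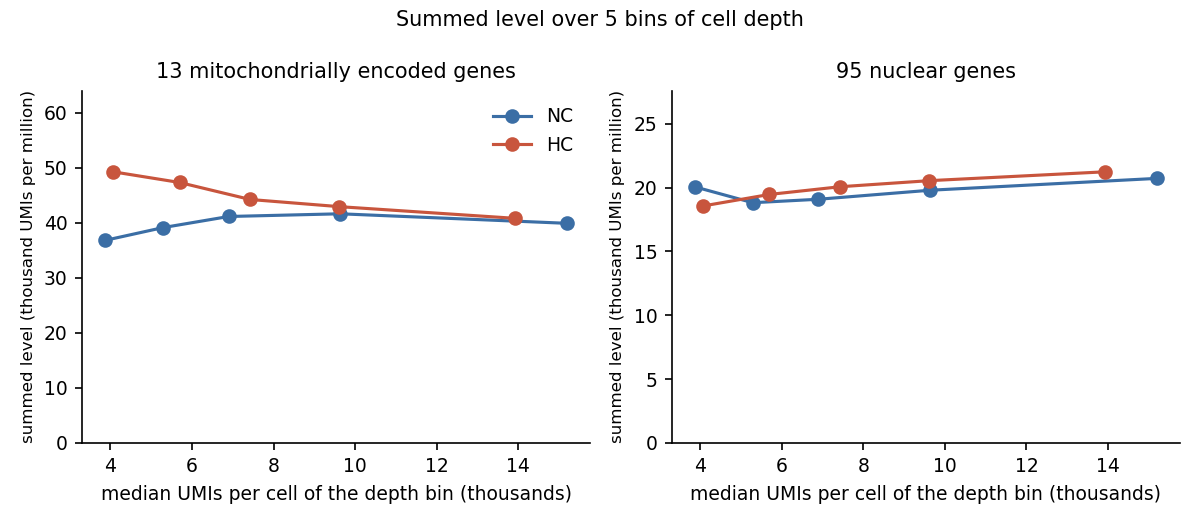
Summed level (vertical axes from 0, in units of 1000 CPM) of the mitochondrially encoded and of the nuclear respiratory chain genes over 5 equal bins of cells by depth in each library, set at the bin's median UMIs per cell (horizontal axes). Points are sums over the cells of a bin. The libraries differ most for the mitochondrial genes in the shallowest bin (36790 in NC and 49240 in HC).

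The nuclear genes of the chain were also set against a cell's mitochondrial share, as CPM over the UMIs of nuclear genes only. In HC cells with 0 to 2%, 2 to 4%, 4 to 6%, 6 to 8% and 8 to 10% mitochondrial UMIs they stood at 21824, 21520, 21277, 20641 and 20147. In NC they stood at 21108, 20834, 20719, 20740 and 19890, close together from 2% to 8% and lowest in the last bin of 177 cells. Complexes differed, and complex V in NC was higher from bin to bin over the first 4 (6732, 6796, 6839, 6864 and 6505). Cycs stood at 195.3, 199.7, 175.8, 150.4 and 134.9 in HC and at 240.8, 240.1, 217.4, 203.1 and 186.5 in NC. Depth and the presence of Bnip3 and Mki67 also differed between these bins, and their part was not tested. In HC the medians were 5212, 8254 and 4265 UMIs in the 0 to 2%, 2 to 4% and 8 to 10% bins. Cells with Mki67 made up 62.7%, 74.3% and 56.8% there, and cells with Bnip3 25.7%, 28.3% and 10.4%.

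Genes that serve the chain from outside the chosen symbols were read against all genes tested, of which 10.7% were higher and 11.5% lower in HC, with a median log2 ratio of −0.029. Of 7 further complex I assembly genes at 5 CPM or more, 2 were lower (Ecsit and Timmdc1, named after their values were seen) and none was higher, with a median log2 ratio of −0.24. Of 19 genes of complex IV assembly and regulation, 4 were lower and 1 was higher (median −0.074), and of 13 for complexes II, III and V, 2 were lower and none higher (−0.094). Of 18 genes for expression and upkeep of mitochondrial DNA, 4 were lower and none higher (−0.13). Of 8 regulators of mitochondrial biogenesis, 3 were lower and none higher (−0.16), with Pprc1, a coactivator related to PGC-1, at 11.5 in NC and 7.2 in HC (−0.67).

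The lists for feeding and emptying the chain are read beside the same shares. Of 16 citric acid cycle and pyruvate dehydrogenase genes, 1 was lower (median −0.054). Of 13 genes of coenzyme Q synthesis, 1 was lower and 1 higher (−0.081), and of 7 carriers of nucleotides, phosphate and protons none was called (−0.038). The 9 low-oxygen genes that act on respiration, Bnip3 among them, had a median of 0.52, with 6 higher in HC and none lower. This list holds the gene used to split the cells. It was chosen with earlier results of these data known, so its count is a description. Pdk1, the kinase that keeps pyruvate from the citric acid cycle, stood at 22.3 CPM in NC and 46.1 in HC (1.05). Higd1a, a complex IV factor induced by low oxygen, stood at 108.4 and 168.6 (0.64), and Mxi1, a MYC antagonist, at 23.2 and 35.5 (0.61). Higd1a was counted in the list for complex IV as well.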

How the data were processed

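The deposited gene by cell matrices hold whole-number UMI counts, made by the authors with Cell Ranger, version 6.1.2 per the file headers. Cell Ranger 5.0.0, Seurat 3.2.3 and mm10 stand in the submitters' processing notes. The depth was 117408492 UMIs in NC and 116897716 in HC before filtering.

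Counts were summed over kept cells and scaled to counts per 1000000 UMIs (CPM). Intervals for ratios are exact binomial (95%). Ratios are given for genes with at least 5 CPM on either side and called at 1.2-fold. With 1 library per group no p-value was computed. Thinning drew 2000 UMIs per cell, which left out 133 NC and 94 HC cells. No doublet caller was run. An alternative left out cells above the 95th percentile of UMIs.

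The genes named with values are the mitochondrial genes, each complex's highest level and its highest and lowest ratio, sets of isoforms, and, for each presence split, the 3 highest and 3 lowest genes by the mean of the NC and HC ratios among genes of the same sign in both libraries. Listed genes outside the chain are named past 1.5-fold. The members and lists were chosen with earlier results of these data known.

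Positions come from GENCODE and upstream sequences from RefSeq. The tools were Python 3.11.15, numpy 2.4.6, scipy 1.17.1, pandas 2.3.3 and matplotlib 3.10.9, with R 4.3.3, edgeR 4.0.16 and DESeq2 1.42.0 for scaling factors only. The calculation was tested on simulated data.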

Additional observations from a re-analysis of the deposited data

Results flagged for a closer look

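Of the sums by complex and the genes named by rule, 13 entries had a ratio of cells with over cells without a UMI whose counting interval lay below 0 in HC and above 0 in NC. mt-Cytb is entered both as a gene and as complex III. The difference between the libraries was not tested, and it rests on 1 library each. Of these entries, 7 concern Bnip3. The summed mitochondrial genes of complex I had a log2 ratio of −0.067 in HC and 0.057 in NC. Complex III, which is mt-Cytb alone, had −0.161 and 0.028. All genes of both genomes summed had −0.095 and 0.0079. For single genes the values were −0.065 and 0.121 for mt-Nd1, −0.027 and 0.083 for mt-Nd2, and −0.100 and 0.115 for mt-Nd4l.

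The other 6 concern Mki67. The summed mitochondrial genes of complex I had −0.040 in HC and 0.060 in NC, and complex III (mt-Cytb) had −0.097 and 0.078. All genes of both genomes summed had −0.059 and 0.016. mt-Nd2 had −0.031 and 0.079, and mt-Co3 had −0.114 and 0.013. Outside the naming rule, and named after their values were seen, Ndufb7 had −0.053 in HC and 0.066 in NC with Bnip3, and Atp5c1 −0.045 and 0.041 with Mki67.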

How the results depend on the processing

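Of 158 values of 10 gene counts under the alternatives, 121 stayed within 1.5 times the count reported and 37 did not. The cause was not tested except where an alternative changes the threshold or the number of genes tested. Higher in HC than in NC, reported as 3, were 5 with no minimum level, 5 with each cell weighted equally and 5 as a mean over depth bins, which was added after seeing the data. Lower, reported as 2, were 1 at 1.5-fold, 5 after thinning, 6 as a mean over the 4 classes of presence and 4 over depth bins. Higher with Bnip3 in NC, reported as 9, were 3 with TMM factors, 3 with median-of-ratios factors, 0 at 1.5-fold, 1 without cells above the 95th percentile of UMIs, 14 after thinning, 30 with presence at 2 UMIs, 3 over depth bins and 4 as a mean over presence of Mki67. Lower there, reported as 0, were 7 after thinning and 4 at 2 UMIs, where 24.7% and 19.9% of all genes were lower. Higher with Bnip3 in HC, reported as 1, were 4 with no minimum level, 0 at 1.5-fold, 3 after thinning and 3 at 2 UMIs. Lower there, reported as 0, were 1 with the 5% mitochondrial limit, 1 without the cells above the 95th percentile, 4 after thinning, 4 at 2 UMIs and 2 over depth bins. Higher with Mki67 in NC, reported as 24, were 0 at 1.5-fold, 2 after thinning and 3 over depth bins, and lower, reported as 3, were 0 at 1.5-fold and 1 over depth bins. Higher with Mki67 in HC, reported as 14, were 0 at 1.5-fold, 2 after thinning and 1 over depth bins, and lower, reported as 3, were 5 with no minimum level, 0 at 1.5-fold and 1 after thinning. The shares over all genes moved too. Higher with Bnip3 in NC were 12.1% of all genes as reported, 27.9% after thinning and 32.5% at 2 UMIs. The share was 9.02% over depth bins and 8.89% as a mean over presence of Mki67. It was 7.06% with TMM factors, 7.63% with median-of-ratios factors and 9.24% without cells above the 95th percentile. With Bnip3 in HC, 15.4% were higher and 16.6% lower after thinning, and 10.5% and 7.62% at 2 UMIs. With no minimum level 19.3% were higher there. Lower there were 3.52% with the 5% mitochondrial limit, 3.97% without cells above the 95th percentile and 5.29% over depth bins. Between the libraries 12.7% were lower after thinning, 16.1% over the 4 classes and 11.1% over depth bins. Higher were 21.4% with no minimum level, 11.6% with each cell weighted equally and 10.9% over depth bins. With Mki67, 21.2% were higher in NC and 21.7% in HC after thinning. Over depth bins 16.2% were higher and 15.7% lower in NC, and 20% were higher in HC. With Mki67 in HC, 28.8% were lower with no minimum level and 11.6% after thinning. Of 3846 other values, 2945 moved by less than counting error, 900 moved by more and 1 changed sign past the threshold: Ndufab1 with Bnip3 in NC had −0.12 after thinning.

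Leaving out cells with B cell marker UMIs was also added after seeing the data. No paired analysis was possible because each group has 1 library. Library preparation, culture and group cannot be told apart.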
